A study of Mus musculus with 18 samples.

Results

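The mitochondrial respiratory chain and ATP synthase were described here through every gene whose symbol in the array annotation begins with Ndufa, Ndufb, Ndufc, Ndufs, Ndufv, Sdha, Sdhb, Sdhc, Sdhd, Uqcr, Cox4, Cox5, Cox6, Cox7, Cox8 or Atp5. This naming rule took 94 of the 18194 genes that have a probe set of their own. The rule uses names alone, but it was set with earlier results of these data known. Each gene's probe set was picked by its mean signal. Of the 94 members, 81 are subunits of complexes I to V: 34 of complex I, 4 of complex II, 8 of complex III, 18 of complex IV (with Ndufa4 and Ndufa4l2 counted there) and 17 of complex V. The other members are 12 assembly factors (Ndufaf and Sdhaf genes) that share the leading letters, and Cox7a2l, a factor that joins complexes III and IV into supercomplexes. After a filter on low signal 92 members were tested among 12170 genes. Cox7b2, a testis form of a complex IV subunit (mean log2 signal 2.83), and the complex I subunit Ndufb4 (3.16) did not pass it.

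The respiratory chain sits in the inner mitochondrial membrane. Complexes I and II take electrons from NADH and succinate, complex III passes them through cytochrome c to complex IV, which reduces oxygen, and complex V uses the proton gradient built by complexes I, III and IV to make ATP. Liver holds many mitochondria, and its chain serves fatty acid oxidation, gluconeogenesis and urea synthesis. Most subunits are encoded in the nucleus, and the members described here are all nuclear genes.

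The study measured liver gene expression in female B6C3F1 mice with 1-colour Affymetrix whole-genome arrays, in 6 groups of 3 animals with 1 array per animal. Mice were 5 weeks old at the start, were exposed for 13 weeks and were 18 weeks old when the liver was taken. In feed, on 7 days a week, 1 group received 1,5-naphthalenediamine at 2000 ppm, 1 received N-(1-naphthyl)ethylenediamine dihydrochloride at 2000 ppm and 1 received pentachloronitrobenzene at 8187 ppm, beside a feed control. By gavage in corn oil at 5 ml/kg, on 5 days a week, 1 group received 2,3-benzofuran at 240 mg/kg, beside a corn oil control. The labels class 1,5-naphthalenediamine and 2,3-benzofuran as positive and N-(1-naphthyl)ethylenediamine and pentachloronitrobenzene as negative for liver tumours in mouse cancer bioassays. Each chemical is set against the control of its own route, so the 3 feed chemicals share their control animals, and whole liver was used, in which fewer cells of a type and less RNA per cell cannot be told apart.

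Values are deposited log2 signals, and 1 log2 unit is a doubling. The number of arrays, 3 per group, limits the precision. The 75th percentile of all probe sets was 6.32 to 6.41 in the 12 treated arrays and 6.10 to 6.26 in the 6 control arrays, so treated arrays were brighter over many genes. Their 18S ribosomal signal ran from 5.94 to 11.6, against 6.11 to 6.67 in controls. RNA integrity numbers were 7.7 to 9.4 in treated animals and 7.4 to 9.1 in controls. The 3′ minus 5′ difference in actin log2 signal was 0.838 to 1.85 in treated arrays and 0.863 to 1.18 in controls. Above all controls lay every N-(1-naphthyl)ethylenediamine array (1.45 to 1.85), 1,5-naphthalenediamine animal 4 (1.75) and 2,3-benzofuran animal 10 (1.29). The other treated arrays did not. The feed control animal 29 was the lowest of its group for 83 of 92 members, and the corn oil control animal 22 for 73. Counts from fits without single arrays and with RNA integrity as a covariate are given below. Beyond these fits and the rescalings, the part of these array differences in the results was not tested. Of the hepatocyte markers 5 had a probe set of their own, with an array mean of 13.51 to 13.73 in all 18 arrays, while both brown fat markers lay under the lowest array median (4.25) in every group, and so did 4 of the 5 striated muscle markers in every group but the corn oil control (3 there). Of 6 macrophage markers 2 fell with 1,5-naphthalenediamine and 3 with 2,3-benzofuran, and none changed with N-(1-naphthyl)ethylenediamine or pentachloronitrobenzene. Of all tested genes 8.41% and 7.58% were called lower with the first 2. Lower marker signal with 2,3-benzofuran was not particular to macrophages. Array means of the stellate markers were 6.75 to 6.91 against 6.95 to 7.21 in the corn oil control. Those of the cholangiocyte markers, near the lowest array median, were 4.23 to 4.44 against 4.52 to 4.59, while the endothelial ones overlapped.

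With 1,5-naphthalenediamine, 56 of 92 members rose and 1 fell at an adjusted p under 0.05. The background was high: 39.9% of all tested genes were called, 31.5% higher and 8.41% lower. The members called higher made up 60.9%, and their median log2 change was 0.247, against 0.175 over all tested genes. With N-(1-naphthyl)ethylenediamine, 40 members rose and 1 fell, beside 29.1% of all tested genes called (24.7% higher and 4.37% lower), and the median was 0.208 against 0.155. With 2,3-benzofuran, 22 members rose and 2 fell, beside 32.3% of all tested genes (24.8% higher and 7.58% lower), so that the members' 23.9% called higher lay at the background. With pentachloronitrobenzene, 12 members rose and 2 fell, beside 18.5% of all tested genes (14.6% higher and 3.87% lower), and the 13.0% of members called higher again lay near the background. Arrays of the 2 groups did not overlap for 64 higher and 3 lower members with 1,5-naphthalenediamine (background 46.5%, 34.9% higher and 11.6% lower) and for 54 and 2 with N-(1-naphthyl)ethylenediamine (38.2%, 31% and 7.21%). They did not overlap for 41 and 1 with 2,3-benzofuran (49.2%, 35.6% and 13.6%) and for 33 and 3 with pentachloronitrobenzene (38.2%, 29.2% and 8.99%).

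These counts follow the scaling of the arrays. After quantile normalization the members called with 1,5-naphthalenediamine were 24 higher and 4 lower, after cyclic loess 22 higher and 3 lower, and with each array centred on its tested genes 11 higher and 9 lower, where the median change of the members was -0.00545 (0.0478 after each of the other 2). The same 3 scalings with N-(1-naphthyl)ethylenediamine gave 4 higher and 2 lower, 3 higher and 2 lower, and 2 higher and 5 lower. With 2,3-benzofuran they gave 7 and 6, 5 and 9, and 1 and 11. With pentachloronitrobenzene they gave 1 and 1, 1 and 1, and 1 and 5. Over all tested genes the shares called after the 3 scalings were 24.3%, 23.1% and 34% with 1,5-naphthalenediamine, 14.4%, 13.3% and 20.5% with N-(1-naphthyl)ethylenediamine, 23.3%, 23.8% and 32.8% with 2,3-benzofuran, and 7.34%, 5.92% and 15.9% with pentachloronitrobenzene. After quantile normalization they split into 12.2% higher and 12.1% lower with 1,5-naphthalenediamine, 7.94% and 6.49% with N-(1-naphthyl)ethylenediamine, 12.6% and 10.7% with 2,3-benzofuran, and 3.02% and 4.32% with pentachloronitrobenzene. Under centring lower calls prevailed over all tested genes too. The split was 9.22% higher and 24.8% lower with 1,5-naphthalenediamine and 5.49% and 15% with N-(1-naphthyl)ethylenediamine. It was 11.2% and 21.5% with 2,3-benzofuran and 2.56% and 13.4% with pentachloronitrobenzene. A call is described below as held after rescaling when it was made after both quantile normalization and cyclic loess.

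Single animals moved the counts as well. Without the feed control animal 29, 1,5-naphthalenediamine gave 35 called members, beside 27.2% of all tested genes, N-(1-naphthyl)ethylenediamine 15 (16.9%) and pentachloronitrobenzene 2 (5.39%). Without 1,5-naphthalenediamine animal 4 the count was 35 (28% of all tested genes). Without 2,3-benzofuran animal 8, 2,3-benzofuran animal 10, or corn oil control animal 22 or 24, 2,3-benzofuran gave 12, 13, 12 and 15, beside 24.3%, 25.2%, 27% and 23% of all tested genes. N-(1-naphthyl)ethylenediamine gave 15 without its animal 12 (15.1%) and 22 without its animal 15 (21.5%), and pentachloronitrobenzene gave 1, 1 and 6 without its animals 16, 18 and 20 (5.42%, 7.24% and 12.4%). The share of all tested genes called was thus lower in the same fits. With the RNA integrity number as a covariate 1 member was called with N-(1-naphthyl)ethylenediamine, whose numbers were 7.7, 8.1 and 7.7, and 6 with pentachloronitrobenzene, beside 2.89% and 12.3% of all tested genes. Of the 56 members that rose with 1,5-naphthalenediamine, 21 were called after both rescalings and without each array in turn, against 4 of 22 with 2,3-benzofuran, 3 of 40 with N-(1-naphthyl)ethylenediamine and 1 of 12 with pentachloronitrobenzene. The share of all tested genes that met these conditions was not counted, so these counts are not read as particular to the members.

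The calls of many named members rested on single animals, and the p-values here are the highest adjusted p over the fits without 1 array. With 1,5-naphthalenediamine the calls of Atp5c1, Atp5d, Atp5g3, Sdha, Cox4i1, Cox7a2 and Uqcrfs1 were lost without the feed control animal 29 and without 1,5-naphthalenediamine animal 4 (0.0891, 0.0876, 0.223, 0.113, 0.205, 0.235 and 0.190). With 2,3-benzofuran those of Atp5c1, Cox5b, Cox6b1, Cox7a2l, Ndufa4, Ndufaf6, Ndufs7, Sdhb and Uqcrc1 were lost without 2,3-benzofuran animal 10 and without the corn oil control animal 22 (0.0594 for Cox6b1 to 0.181 for Cox5b). With N-(1-naphthyl)ethylenediamine those of Ndufv1, Sdhaf4, Cox6b1, Atp5d, Uqcrc2, Uqcr10 and Cox4i2 were lost without N-(1-naphthyl)ethylenediamine animal 12 and without the feed control animal 29 (0.0717 for Ndufv1 to 0.188 for Uqcrc2), that of Cox8a without N-(1-naphthyl)ethylenediamine animal 12 or 15 (0.0620), and that of Sdhb without N-(1-naphthyl)ethylenediamine animal 15 (0.0506). With pentachloronitrobenzene every named call but that of Ndufaf6 was lost without the feed control animal 29 and without pentachloronitrobenzene animal 16 or 18 (0.0898 for Atp5pb to 0.213 for Sdhc).

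**Figure D1:**
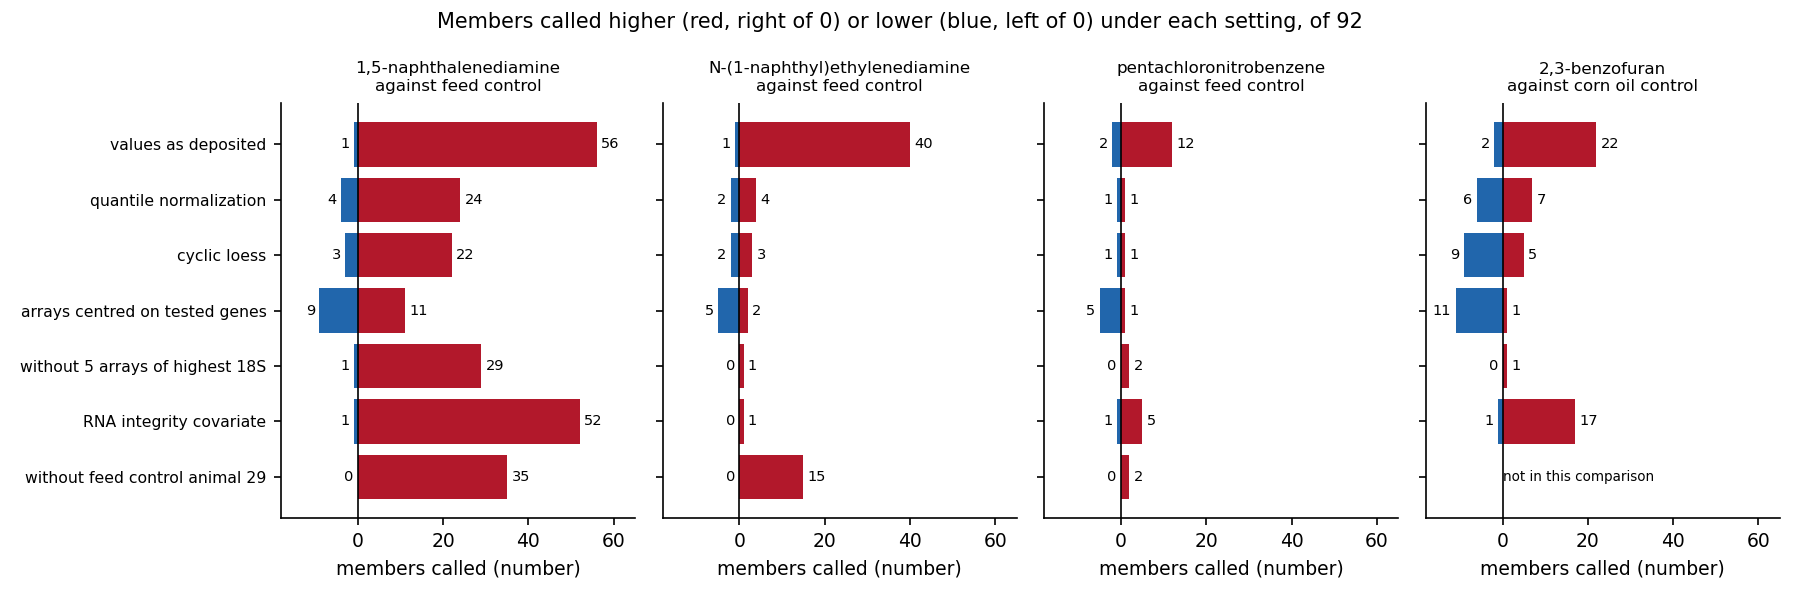
Number of the 92 tested members called higher (red, right of 0) or lower (blue, left of 0) at an adjusted p under 0.05 for the 4 chemicals under 7 settings. The setting without the 5 arrays of highest 18S signal leaves 1 array each with 2,3-benzofuran and N-(1-naphthyl)ethylenediamine. 1,5-naphthalenediamine keeps 24 and 22 higher calls after quantile normalization and cyclic loess, and pentachloronitrobenzene keeps 1 after each. Under centring 2,3-benzofuran has 1 higher and 11 lower, beside 11.2% of all tested genes higher and 21.5% lower.

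**Figure D2:**
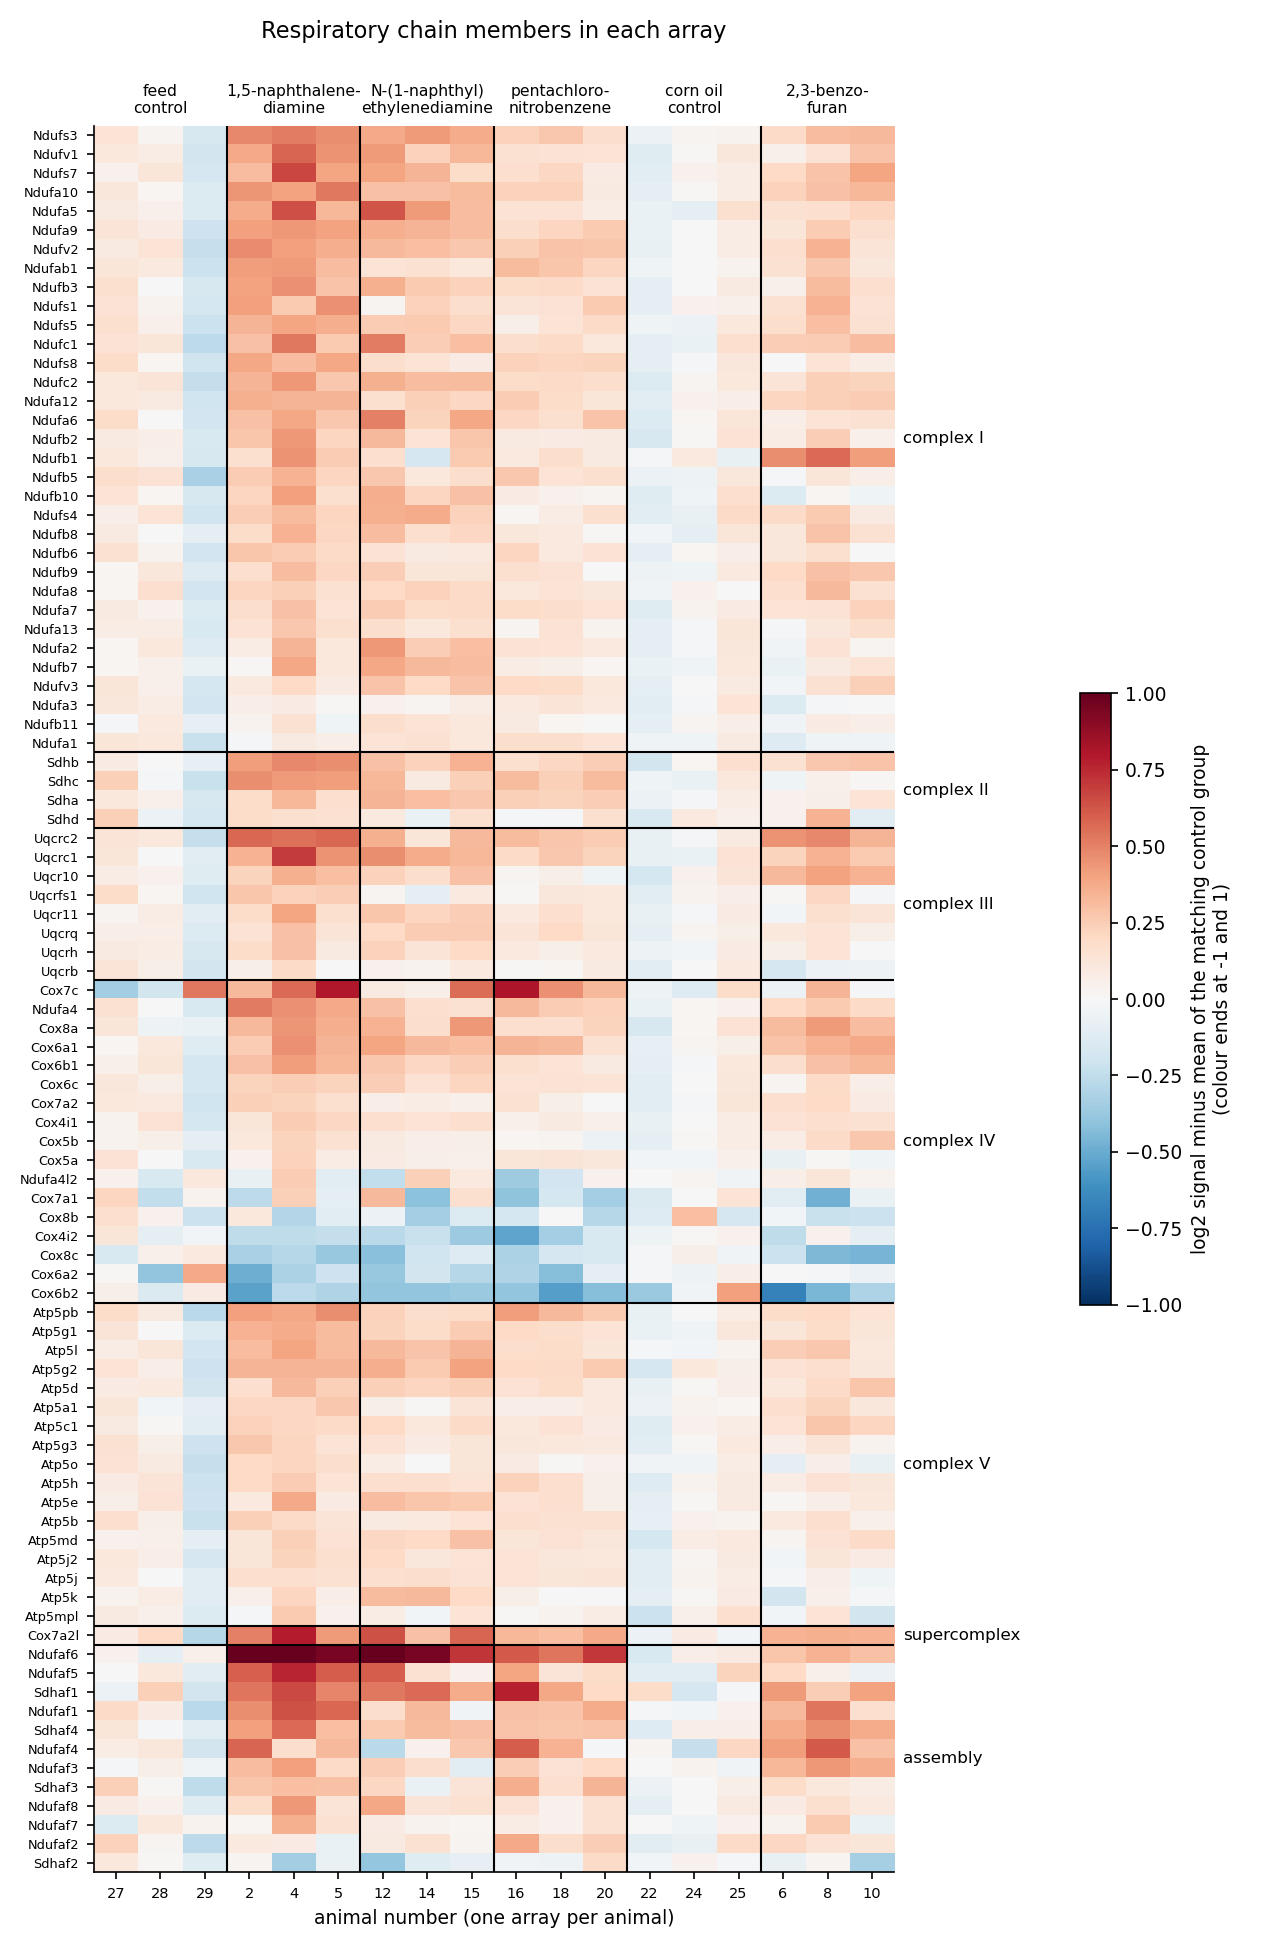
Log2 signal of each tested member in each array minus the mean of the matching control group (red above it, blue below it, colour ends at -1 and 1), with members in rows ordered by complex and arrays in columns by group. On the deposited scale red covers most rows of the 3 1,5-naphthalenediamine arrays, and the feed control animal 29 is blue in most rows.

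Across the 4 chemicals, 5 members rose with all of them on the deposited scale: Cox6a1, Ndufaf6, Ndufs3, Sdhaf4 and Uqcrc2. Of the rest, 13 rose with 3 chemicals, 25 with 2, 21 with 1 and 28 with none. Since the feed comparisons share 3 control animals, a low control animal raises all 3 at once. Lower calls were made with 2 of 4 chemicals for Cox4i2, Cox6b2 and Cox8c, and for no other member. The share of all tested genes called with several chemicals was not counted, so these counts have no background beside them.

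Promoters were examined because nuclear respiratory genes are known to share sites for NRF1 and ETS factors. In the 250 bases before the start, from RefSeq on GRCm38.p6, 78 members had 83 promoters, and Ndufaf6, Uqcrc2 and 14 other members had none in the table. Each motif was searched on both strands. The NRF1 core GCATGCGC was in 8 of 83 (9.64%), in 2.26% of 32851 promoters of all genes and in 3.95% of those of tested genes. The ETS motif CCGGAAG was in 16 (19.3%), in 6.91% of all and in 12.3% of those of tested genes. The YY1 motif AAGATGGC was in 1 (1.2%), in 1.56% of all and in 1.90% of those of tested genes. The ERR half-site AAGGTCA was in 5 (6.02%), in 4.08% of all and in 3.10% of those of tested genes. A match says only that these letters are present. The promoters of the 3 members with a promoter entry that rose with all 4 chemicals, and of Sdhb, are given 5′ to 3′ on the gene's strand, with NRF1 core and ETS matches in capitals. Cox6a1 (chr5:115348959-115349208, minus strand) holds both motifs, the NRF1 core on overlapping strands, Ndufs3 (chr2:90904722-90904971, minus strand) an ETS match, Sdhb (chr4:140961021-140961270, plus strand) an NRF1 core, and Sdhaf4 (chr1:24005641-24005890, minus strand) none of the 4.
Cox6a1: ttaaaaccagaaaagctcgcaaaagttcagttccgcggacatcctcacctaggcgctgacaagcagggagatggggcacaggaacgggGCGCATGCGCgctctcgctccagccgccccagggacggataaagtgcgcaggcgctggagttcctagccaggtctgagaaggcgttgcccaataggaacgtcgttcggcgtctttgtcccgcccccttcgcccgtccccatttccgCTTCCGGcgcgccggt
Ndufs3: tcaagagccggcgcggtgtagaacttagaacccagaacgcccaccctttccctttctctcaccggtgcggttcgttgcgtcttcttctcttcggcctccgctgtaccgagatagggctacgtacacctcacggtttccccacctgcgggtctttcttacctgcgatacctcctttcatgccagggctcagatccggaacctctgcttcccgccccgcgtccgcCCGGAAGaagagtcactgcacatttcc
Sdhb: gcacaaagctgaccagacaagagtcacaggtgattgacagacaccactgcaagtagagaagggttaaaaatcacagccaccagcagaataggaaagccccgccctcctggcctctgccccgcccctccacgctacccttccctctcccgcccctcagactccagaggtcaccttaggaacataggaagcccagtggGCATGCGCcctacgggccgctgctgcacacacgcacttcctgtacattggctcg
Sdhaf4: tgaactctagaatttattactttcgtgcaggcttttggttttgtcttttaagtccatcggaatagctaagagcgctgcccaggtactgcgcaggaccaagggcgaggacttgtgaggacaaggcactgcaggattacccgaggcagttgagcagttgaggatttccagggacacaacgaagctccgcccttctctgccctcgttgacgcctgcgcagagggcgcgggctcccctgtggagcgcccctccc

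Complex I, the NADH dehydrogenase that feeds electrons into the chain, had 33 tested subunits. Their mean log2 signal per array averaged 10.90 ± 0.06 (SD, n = 3) with 1,5-naphthalenediamine, 10.85 ± 0.04 with N-(1-naphthyl)ethylenediamine, 10.75 ± 0.02 with pentachloronitrobenzene and 10.61 ± 0.15 in the feed control. It was 10.81 ± 0.06 with 2,3-benzofuran and 10.65 ± 0.09 in the corn oil control. With 1,5-naphthalenediamine 24 of the 33 rose (median 0.307), with N-(1-naphthyl)ethylenediamine 19 (0.245), with 2,3-benzofuran 6 (0.177) and with pentachloronitrobenzene 3 (0.152), and none fell as deposited. After quantile normalization the medians were, in the same order of chemicals, 0.0998, 0.0740, 0.0400 and -0.0273, and 9, 1, 2 and 0 subunits rose, while 1 fell with 1,5-naphthalenediamine and 3 fell with 2,3-benzofuran. Among them 6 core subunits that carry the flavin, the iron-sulphur clusters or the quinone site (Ndufs1, Ndufs3, Ndufs7, Ndufs8, Ndufv1 and Ndufv2) all rose with 1,5-naphthalenediamine, by a median of 0.436, while 18 of the 27 other subunits rose (median 0.261). With N-(1-naphthyl)ethylenediamine 4 of the 6 rose, with 2,3-benzofuran 2 and with pentachloronitrobenzene 2.

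Ndufs3, a core subunit of the arm that reaches into the matrix, had log2 signals of 10.95, 10.98 and 10.94 with 1,5-naphthalenediamine against 10.61, 10.50 and 10.31 in the feed control. With N-(1-naphthyl)ethylenediamine they were 10.85, 10.90 and 10.84, with pentachloronitrobenzene 10.70, 10.75 and 10.65, with 2,3-benzofuran 10.76, 10.88 and 10.90, and in the corn oil control 10.51, 10.60 and 10.61. No treated animal overlapped its controls, and the 1,5-naphthalenediamine animals were the highest of all groups. The log2 change was 0.48 ± 0.08 (SE, 1.40-fold, adjusted p = 0.000243) with 1,5-naphthalenediamine, 0.39 (adjusted p = 0.00252) with N-(1-naphthyl)ethylenediamine, 0.27 (adjusted p = 0.0123) with 2,3-benzofuran and 0.23 (adjusted p = 0.0488) with pentachloronitrobenzene. The first 2 held after rescaling and without each array in turn. The call with pentachloronitrobenzene was lost after either rescaling and in 5 of its 6 fits without 1 array, each pentachloronitrobenzene animal or the feed control animal 28 or 29, and the call with 2,3-benzofuran was lost after cyclic loess (adjusted p = 0.134).

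Ndufv1, which binds NADH and its flavin, read 11.36, 11.57 and 11.43 with 1,5-naphthalenediamine against 11.09, 11.06 and 10.80 in the feed control, without overlap (log2 change 0.47, 1.39-fold, adjusted p = 0.00105). It was 0.33 higher with N-(1-naphthyl)ethylenediamine (adjusted p = 0.0144), a call lost after rescaling and without N-(1-naphthyl)ethylenediamine animal 12 or the feed control animal 29. With 2,3-benzofuran and pentachloronitrobenzene its changes of 0.16 and 0.14 did not pass the test (adjusted p = 0.187 and 0.251). Ndufs7, Ndufv2, Ndufs8 and Ndufs1 rose with 1,5-naphthalenediamine by 0.46, 0.42, 0.36 and 0.38 (adjusted p = 0.00235, 0.00189, 0.00321 and 0.00655). All but Ndufs1 held after rescaling.

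The accessory subunits varied more. Ndufa5 was among the members that changed most with N-(1-naphthyl)ethylenediamine, at 10.78, 10.58 and 10.47 against 10.25, 10.21 and 10.02 in the feed control (0.45 ± 0.10, 1.37-fold, adjusted p = 0.0049), and was 0.45 higher with 1,5-naphthalenediamine too (adjusted p = 0.00286), though neither call held after rescaling. Ndufb1, a small membrane-arm subunit, had the largest change of the complex with 2,3-benzofuran: 5.65, 5.76 and 5.61 against 5.17, 5.29 and 5.11 in the corn oil control, without overlap (0.48 ± 0.12, 1.40-fold, adjusted p = 0.00512), and that call held after rescaling. Ndufab1, the mitochondrial acyl carrier protein, had the largest change with pentachloronitrobenzene (0.27, adjusted p = 0.0345, lost after rescaling). Ndufa1, needed to build the membrane arm, was the subunit that changed least with 1,5-naphthalenediamine, at 11.61, 11.72 and 11.69 against 11.75, 11.73 and 11.41 (0.04, adjusted p = 0.686), and the groups overlapped. After quantile normalization Ndufa1 was called lower there, one of the members whose direction turned with the scaling. The lowest changes of the complex were those of Ndufa1 with 2,3-benzofuran (-0.07, adjusted p = 0.522), Ndufa3 with N-(1-naphthyl)ethylenediamine (0.05, adjusted p = 0.682) and Ndufb11 with pentachloronitrobenzene (0.04, adjusted p = 0.731).

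**Figure D3:**
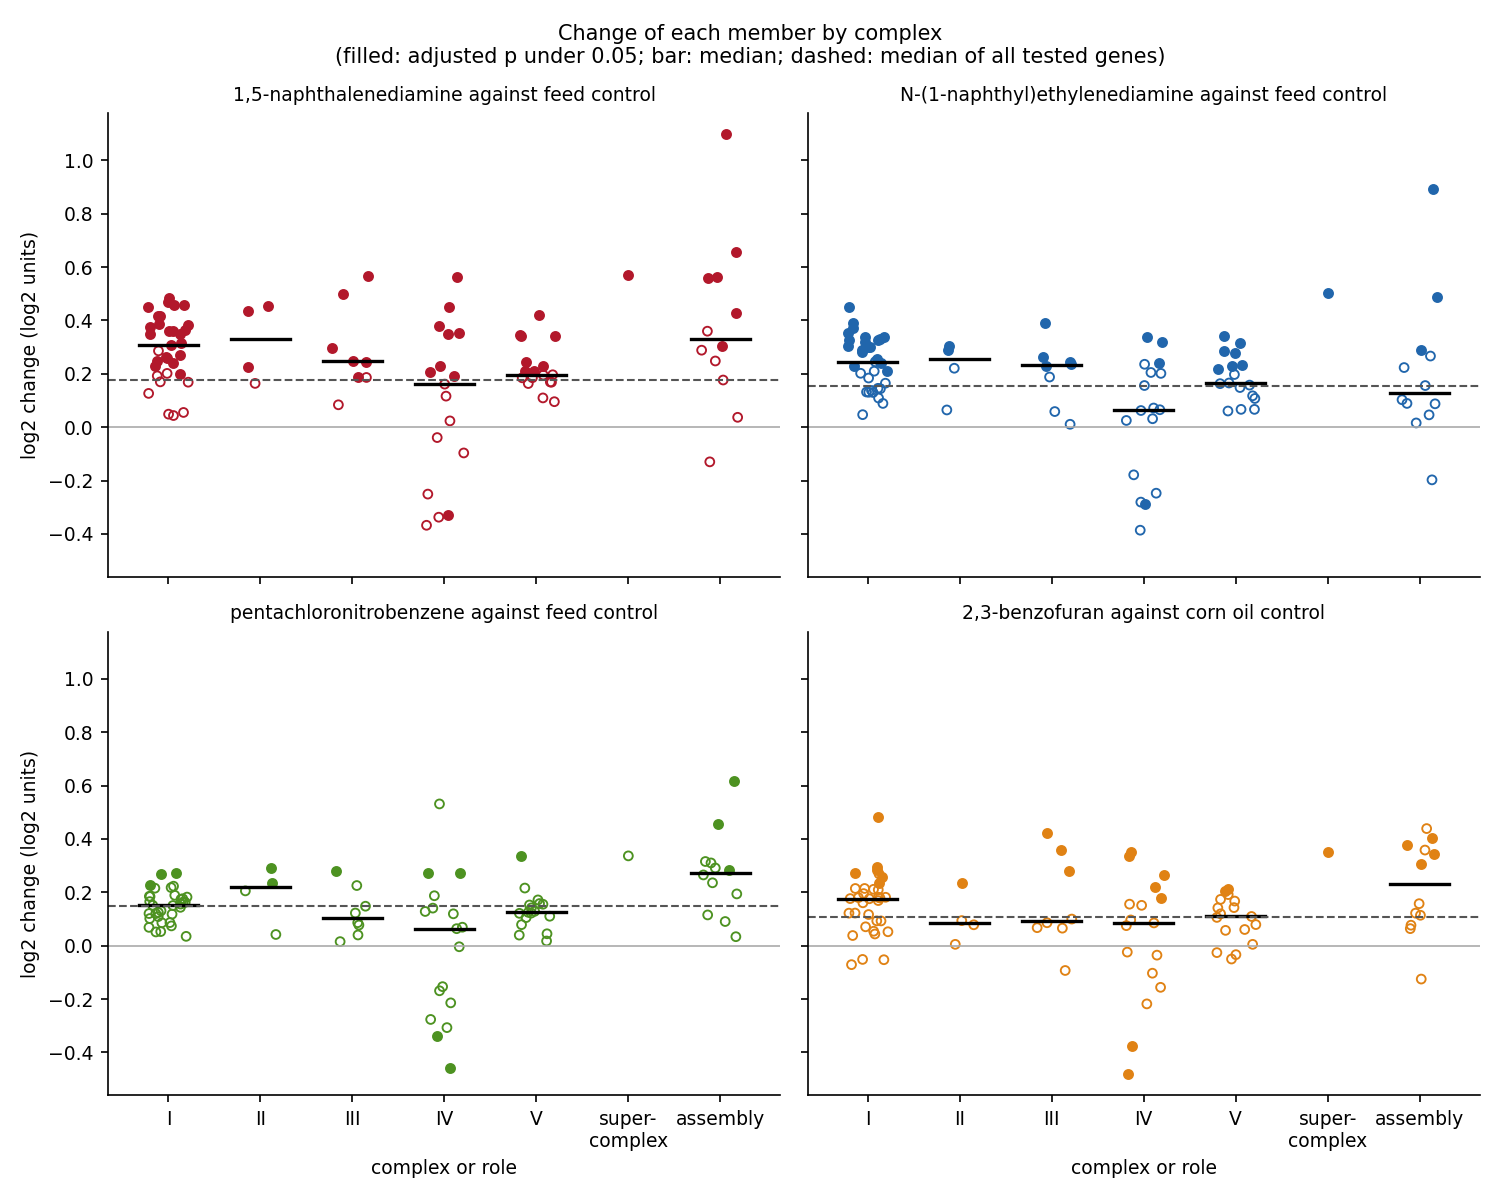
Log2 change of every tested member against its route control (vertical axis, log2 units) by complex or role (horizontal axis) for the 4 chemicals, with filled points called at an adjusted p under 0.05, bars at the median of the members and a dashed line at the median of all tested genes. With 1,5-naphthalenediamine the complex I bar is at 0.307 and the complex IV bar at 0.161, beside a dashed line at 0.175.

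Complex II, succinate dehydrogenase, links the citric acid cycle to the chain and has 4 subunits, all tested. As deposited 3 rose with 1,5-naphthalenediamine, 2 with N-(1-naphthyl)ethylenediamine, 2 with pentachloronitrobenzene and 1 with 2,3-benzofuran, and after quantile normalization 2 rose with 1,5-naphthalenediamine and none with the others. Sdhb, the iron-sulphur subunit, read 11.88, 11.94 and 11.93 with 1,5-naphthalenediamine and 11.54, 11.46 and 11.38 in the feed control. It read 11.76, 11.69 and 11.81 with N-(1-naphthyl)ethylenediamine, 11.62, 11.67 and 11.71 with pentachloronitrobenzene, 11.70, 11.81 and 11.83 with 2,3-benzofuran, and 11.36, 11.57 and 11.71 in the corn oil control. The 1,5-naphthalenediamine animals lay above every other animal, and the 2,3-benzofuran animals touched their controls. The log2 change was 0.45 ± 0.08 (1.37-fold, adjusted p = 0.000488) with 1,5-naphthalenediamine, which held after rescaling and without each array. It was 0.29 (adjusted p = 0.0134) with N-(1-naphthyl)ethylenediamine, 0.24 (adjusted p = 0.031) with 2,3-benzofuran and 0.21 (adjusted p = 0.0744, not called) with pentachloronitrobenzene, and the calls with N-(1-naphthyl)ethylenediamine and 2,3-benzofuran were lost after rescaling.

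Sdha, the flavin subunit that oxidises succinate, rose by 0.30 with N-(1-naphthyl)ethylenediamine (adjusted p = 0.00814), by 0.24 with pentachloronitrobenzene (adjusted p = 0.039) and by 0.23 with 1,5-naphthalenediamine (adjusted p = 0.0244), with no call after rescaling. The membrane anchor Sdhc rose by 0.44 with 1,5-naphthalenediamine (10.69, 10.65 and 10.64 against 10.47, 10.20 and 10.01, adjusted p = 0.00266), held after rescaling, and by 0.29 with pentachloronitrobenzene (adjusted p = 0.0462, with overlap, lost after rescaling). Its change with 2,3-benzofuran was 0.01 (adjusted p = 0.973). The other anchor, Sdhd, was called with no chemical, with changes from 0.04 with pentachloronitrobenzene to 0.16 with 1,5-naphthalenediamine (adjusted p = 0.808 and 0.273).

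Complex III, the cytochrome bc1 complex, had 8 tested members, of which 6 rose with 1,5-naphthalenediamine, 5 with N-(1-naphthyl)ethylenediamine, 3 with 2,3-benzofuran and 1 with pentachloronitrobenzene as deposited, and after quantile normalization 2 rose with 1,5-naphthalenediamine, 2 with 2,3-benzofuran and none with the others. Its core proteins Uqcrc1 and Uqcrc2 and the Rieske iron-sulphur protein Uqcrfs1 all rose with 1,5-naphthalenediamine (median 0.499), against 3 of the 5 others (median 0.189). With 2,3-benzofuran 2 of these 3 rose (median 0.278) against 1 of the 5 (0.0862), with pentachloronitrobenzene 1 (0.226) against 0 (0.0864), and with N-(1-naphthyl)ethylenediamine 2 (0.264) against 3 (0.231). Uqcrc2 read 11.15, 11.12 and 11.14 with 1,5-naphthalenediamine against 10.70, 10.68 and 10.34 in the feed control, and 11.14, 11.16 and 11.02 with 2,3-benzofuran against 10.61, 10.66 and 10.78 in the corn oil control. Both sets of treated animals stood clear of their controls by more than the spread within the groups. The log2 change was 0.57 ± 0.09 (1.48-fold, adjusted p = 0.000291) with 1,5-naphthalenediamine and 0.42 (1.34-fold, adjusted p = 0.00254) with 2,3-benzofuran, and both held after rescaling and without each array.

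With N-(1-naphthyl)ethylenediamine Uqcrc2 read 10.92, 10.69 and 10.89, overlapping the feed control (0.26, adjusted p = 0.04), and with pentachloronitrobenzene 10.88, 10.85 and 10.82 (0.28, adjusted p = 0.0426). Both calls were lost after rescaling, where the quantile changes had adjusted p = 0.472 and 0.35. Uqcrc1 read 10.76, 11.12 and 10.86 with 1,5-naphthalenediamine against 10.53, 10.41 and 10.30, and its change of 0.50 ± 0.09 (adjusted p = 0.000829) held after rescaling, unlike 0.39 with N-(1-naphthyl)ethylenediamine (adjusted p = 0.00703) and 0.28 with 2,3-benzofuran (adjusted p = 0.0311). Uqcrfs1 rose with 1,5-naphthalenediamine only on the deposited scale, by 0.25 (adjusted p = 0.039), and 5 of its 6 fits without 1 array (each 1,5-naphthalenediamine animal, the feed control animal 28 or 29) lost the call. Its change with N-(1-naphthyl)ethylenediamine was 0.01 (adjusted p = 0.941).

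Uqcr10, a small subunit, rose with 2,3-benzofuran from 10.38, 10.60 and 10.68 to 10.88, 10.95 and 10.90 (0.36 ± 0.08, 1.28-fold, adjusted p = 0.00385), without overlap, and held after rescaling. With 1,5-naphthalenediamine it rose by 0.30 (adjusted p = 0.0106), and with pentachloronitrobenzene its change was 0.02 (adjusted p = 0.902). Uqcrb, which binds ubiquinone with cytochrome b, had the lowest changes with 1,5-naphthalenediamine and 2,3-benzofuran, 0.08 and -0.09 (adjusted p = 0.391 and 0.37), and was called lower with 2,3-benzofuran after cyclic loess.

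Complex IV, cytochrome c oxidase, had 17 tested members, and its median change was below that of complex I with each chemical on the deposited scale (with 2,3-benzofuran not after quantile normalization, 0.0454 against 0.0400, nor against genes of like signal, 0.138 against 0.0351): 0.161 with 1,5-naphthalenediamine, 0.0654 with N-(1-naphthyl)ethylenediamine, 0.0855 with 2,3-benzofuran and 0.0639 with pentachloronitrobenzene. The gap to all members depended on the scaling and the chemical. With 1,5-naphthalenediamine the complex IV median minus that of all members was -0.0859 as deposited, -0.0159 after quantile normalization and 0.00134 after cyclic loess. With N-(1-naphthyl)ethylenediamine the gap shrank but stayed negative after both, and with 2,3-benzofuran it turned positive. Under centring complex IV had the lowest median of complexes I to V with 1,5-naphthalenediamine (-0.0914) and N-(1-naphthyl)ethylenediamine (-0.158). With 1,5-naphthalenediamine 8 of 17 rose and 1 fell, with 2,3-benzofuran 5 rose and 2 fell, with N-(1-naphthyl)ethylenediamine 3 rose and 1 fell, and with pentachloronitrobenzene 2 rose and 2 fell. After quantile normalization 4 rose and 2 fell with 1,5-naphthalenediamine, 3 rose and 2 fell with 2,3-benzofuran, 1 rose and 1 fell with N-(1-naphthyl)ethylenediamine, and 0 rose and 1 fell with pentachloronitrobenzene. The structural core differed from subunit to subunit. Cox5a, a matrix-side subunit, read 11.84, 12.04 and 11.88 with 1,5-naphthalenediamine against 11.95, 11.81 and 11.65, and overlapped its controls with all 4 chemicals (-0.04 to 0.12, none called). Cox4i1, the subunit through which ATP slows the enzyme, rose by 0.19 with 1,5-naphthalenediamine (adjusted p = 0.044, with overlap, lost after rescaling). Cox5b rose by 0.18 with 2,3-benzofuran (adjusted p = 0.0445, with overlap, lost after rescaling) and was 0.16 higher with 1,5-naphthalenediamine (adjusted p = 0.0588, not called).

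Several complex IV genes come as tissue isoforms. Cox6a1, the liver form, read 12.97, 13.17 and 13.05 with 1,5-naphthalenediamine, 13.11, 13.04 and 13.01 with N-(1-naphthyl)ethylenediamine, and 13.05, 13.04 and 12.87 with pentachloronitrobenzene, against 12.73, 12.82 and 12.59 in the feed control. With 2,3-benzofuran it read 13.01, 13.08 and 13.11 against 12.65, 12.75 and 12.79. In all 4 comparisons every treated animal was above every control. Its changes were 0.35 ± 0.07 with 1,5-naphthalenediamine, 0.34 with 2,3-benzofuran, 0.34 with N-(1-naphthyl)ethylenediamine and 0.27 with pentachloronitrobenzene (adjusted p = 0.00167, 0.00252, 0.00394 and 0.0205). The calls with 1,5-naphthalenediamine and 2,3-benzofuran held after rescaling. Its heart and muscle partner Cox6a2 read 6.14, 6.31 and 6.41 with 1,5-naphthalenediamine against 6.64, 6.23 and 7.00 (-0.34, adjusted p = 0.0726, not called), and was called lower there after rescaling. Cox8a, the form of most tissues, rose with 1,5-naphthalenediamine, 2,3-benzofuran and N-(1-naphthyl)ethylenediamine by 0.38, 0.35 and 0.32 (adjusted p = 0.00347, 0.0064 and 0.0138), and none of these calls held after rescaling. Cox6b1 rose with the same 3 chemicals by 0.35, 0.27 and 0.24 (adjusted p = 0.00228, 0.0135 and 0.0261), and the first 2 calls held after rescaling.

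Cox8c, a testis form, read 6.49, 6.53 and 6.43 with 1,5-naphthalenediamine against 6.66, 6.87 and 6.91 in the feed control, and 6.61, 6.38 and 6.36 with 2,3-benzofuran against 6.81, 6.89 and 6.79 in the corn oil control, without overlap. It fell by 0.33 ± 0.11 (adjusted p = 0.0199) with 1,5-naphthalenediamine and by 0.38 (adjusted p = 0.012) with 2,3-benzofuran. Its changes with N-(1-naphthyl)ethylenediamine and pentachloronitrobenzene were -0.25 and -0.21 (adjusted p = 0.084 and 0.146, not called), and after rescaling it was called lower with all 4 chemicals. Without the feed control animal 28 or 29 or 1,5-naphthalenediamine animal 5 the call with 1,5-naphthalenediamine was lost, and without 2,3-benzofuran animal 10 that with 2,3-benzofuran. The other members that fell were near background. Cox6b2, a testis form, fell by 0.48 with 2,3-benzofuran (adjusted p = 0.0216, with overlap) and by 0.46 with pentachloronitrobenzene (adjusted p = 0.0434), and its mean lay under the lowest array median in 4 of 6 groups. Cox4i2, a lung form, fell by 0.29 with N-(1-naphthyl)ethylenediamine (adjusted p = 0.0485) and by 0.34 with pentachloronitrobenzene (adjusted p = 0.0353), with 1 of 6 group means under that level.

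The 1 tested striated muscle marker, Ckm, fell with 1,5-naphthalenediamine, N-(1-naphthyl)ethylenediamine and pentachloronitrobenzene (-0.45, -0.37 and -0.34, adjusted p = 0.00472, 0.0199 and 0.0384), and its part beside the muscle forms was not tested. Cox7a1, the muscle form (5 of 6 group means under the lowest array median), and Cox8b, the muscle form of Cox8 (2 of 6), did not pass the test with any chemical, nor did Ndufa4l2, the hypoxia-linked partner of Ndufa4. Cox7a2, the liver form, rose by 0.21 with 1,5-naphthalenediamine (adjusted p = 0.0451, lost after rescaling). Ndufa4 rose by 0.45 ± 0.08 with 1,5-naphthalenediamine (12.03, 11.97 and 11.89 against 11.66, 11.51 and 11.36, adjusted p = 0.000371), without overlap and held after rescaling, and by 0.27 with pentachloronitrobenzene (adjusted p = 0.0249) and 0.22 with 2,3-benzofuran (adjusted p = 0.036), lost after rescaling. Cox7c had the largest change of the complex with 1,5-naphthalenediamine, 0.56 ± 0.20 (adjusted p = 0.0355), but its arrays overlapped (4.26, 4.50 and 4.73 against 3.59, 3.75 and 4.46) and 4 of 6 group means lay under the lowest array median. The gene Cox7b is not analysed here.

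Complex V, the ATP synthase, had 17 tested members, of which 8 rose with 1,5-naphthalenediamine (median 0.196), 7 with N-(1-naphthyl)ethylenediamine (0.166), 2 with 2,3-benzofuran (0.110) and 1 with pentachloronitrobenzene (0.125), and none fell as deposited, while after quantile normalization 3 rose with 1,5-naphthalenediamine and none with the others. In the catalytic head Atp5a1 rose with 1,5-naphthalenediamine by 0.23 (adjusted p = 0.0113), from 12.17, 12.02 and 11.94 to 12.25, 12.25 and 12.32. Atp5c1, the central stalk's gamma subunit, rose by 0.21 with 1,5-naphthalenediamine and by 0.21 with 2,3-benzofuran (adjusted p = 0.0239 and 0.0268), and Atp5d, its delta subunit, by 0.24 with 1,5-naphthalenediamine and 0.23 with N-(1-naphthyl)ethylenediamine (adjusted p = 0.0182 and 0.0326). The catalytic beta subunit Atp5b read 12.72, 12.67 and 12.61 with 1,5-naphthalenediamine against 12.65, 12.54 and 12.26, with overlap, and was not called (0.19, adjusted p = 0.0658). Atp5o, which ties the head to the side stalk, was not called either (0.20, adjusted p = 0.0707). None of the head and central stalk calls held after rescaling. Of the 5 subunits of the head and central stalk (Atp5a1, Atp5b, Atp5c1, Atp5d and Atp5e) 3 rose with 1,5-naphthalenediamine (median 0.210), against 5 of the 12 others (median 0.196).

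The side stalk subunit Atp5pb changed most in the complex. It read 11.99, 11.97 and 12.05 with 1,5-naphthalenediamine and 12.01, 11.91 and 11.85 with pentachloronitrobenzene, against 11.77, 11.68 and 11.31 in the feed control, without overlap. It rose by 0.42 ± 0.09 (1.34-fold, adjusted p = 0.00204) with 1,5-naphthalenediamine, held after rescaling and without each array, and by 0.34 (1.26-fold, adjusted p = 0.0201) with pentachloronitrobenzene, lost after rescaling and without the feed control animal 29 or pentachloronitrobenzene animal 16 or 18. The 3 genes for the rotor's identical c subunits, Atp5g1, Atp5g2 and Atp5g3, all rose with 1,5-naphthalenediamine by 0.35, 0.34 and 0.21 (adjusted p = 0.00176, 0.00686 and 0.0425), and Atp5g1 was still called after quantile normalization but not after cyclic loess. Atp5g2 had the largest change of the complex with N-(1-naphthyl)ethylenediamine (0.34, adjusted p = 0.0103, lost after rescaling). The lowest changes were those of Atp5mpl with 1,5-naphthalenediamine and N-(1-naphthyl)ethylenediamine (0.10 and 0.06, adjusted p = 0.483 and 0.687) and of Atp5k with 2,3-benzofuran and pentachloronitrobenzene (-0.05 and 0.02, adjusted p = 0.657 and 0.881).

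**Figure D4:**
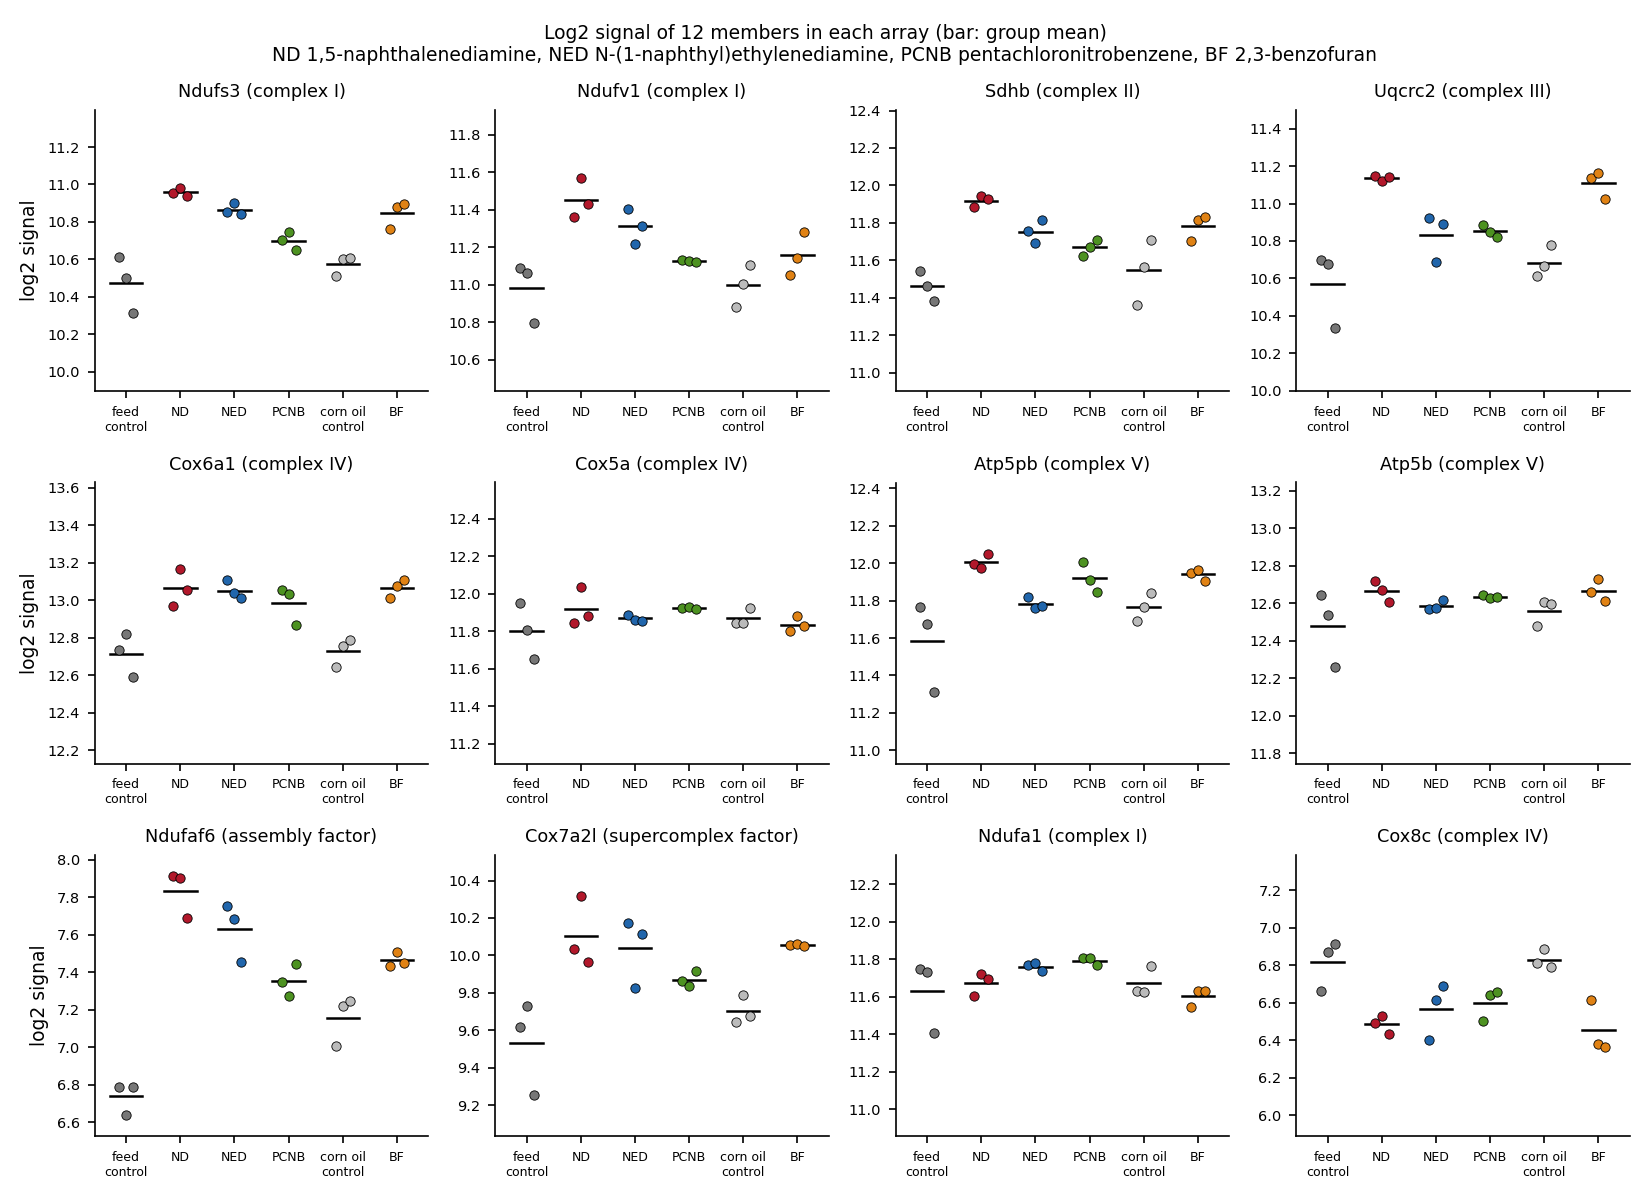
Log2 signal (vertical axis, 1.5 log2 units in every panel) of 12 members in each array by group, with a bar at the group mean; ND, NED, PCNB and BF stand for the 4 chemicals named in the title. The 1,5-naphthalenediamine animals lie above all feed controls for Ndufs3, Ndufv1, Sdhb, Uqcrc2, Cox6a1, Atp5pb, Ndufaf6 and Cox7a2l, overlap them for Cox5a, Atp5b and Ndufa1, and lie below them for Cox8c.

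The largest change of any member was that of Ndufaf6, a factor needed to assemble complex I. It read 7.91, 7.91 and 7.69 with 1,5-naphthalenediamine, 7.76, 7.69 and 7.46 with N-(1-naphthyl)ethylenediamine and 7.35, 7.27 and 7.44 with pentachloronitrobenzene, against 6.79, 6.64 and 6.79 in the feed control. With 2,3-benzofuran it read 7.44, 7.51 and 7.45 against 7.01, 7.22 and 7.24 in the corn oil control. All treated animals lay above their controls, and the corn oil control lay above the feed control (0.42, adjusted p = 0.131, not called). Ndufaf6 rose by 1.10 ± 0.10 (2.14-fold, adjusted p = 1.52e-06) with 1,5-naphthalenediamine, by 0.89 (1.86-fold, adjusted p = 9.6e-05) with N-(1-naphthyl)ethylenediamine and by 0.62 (1.53-fold, adjusted p = 0.00169) with pentachloronitrobenzene, and these 3 calls held after rescaling and without each array. With 2,3-benzofuran it rose by 0.31 (adjusted p = 0.0319), and the quantile value was 0.09 (adjusted p = 0.574).

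Other assembly factors moved with 1,5-naphthalenediamine, 6 of 12 in all (median 0.332). Ndufaf5, which modifies a core complex I subunit, rose by 0.65 ± 0.14 (1.57-fold, adjusted p = 0.00186), from 5.33, 5.44 and 5.23 to 5.93, 6.10 and 5.95. Ndufaf1, which acts on the membrane arm, rose by 0.56 ± 0.12 (1.47-fold, adjusted p = 0.00226), from 8.24, 8.13 and 7.79 to 8.52, 8.69 and 8.63. Neither overlapped, and both calls held after rescaling and without each array. Sdhaf4, a chaperone of Sdha, rose with all 4 chemicals, by 0.43 with 1,5-naphthalenediamine, 0.40 with 2,3-benzofuran, 0.29 with N-(1-naphthyl)ethylenediamine and 0.28 with pentachloronitrobenzene (adjusted p = 0.00189, 0.00313, 0.0247 and 0.0393), and none of these calls held after rescaling. Sdhaf2, which attaches the flavin to Sdha, was not called on the deposited scale with 1,5-naphthalenediamine (-0.13, adjusted p = 0.402) and was lower after cyclic loess (-0.41, adjusted p = 0.0236). Cox7a2l, the supercomplex factor, read 10.04, 10.32 and 9.96 with 1,5-naphthalenediamine and 10.17, 9.83 and 10.11 with N-(1-naphthyl)ethylenediamine, above 9.62, 9.73 and 9.25 in the feed control. It rose by 0.57 ± 0.12 (1.49-fold, adjusted p = 0.00167) and 0.50 (1.42-fold, adjusted p = 0.00642), both held after rescaling, and by 0.35 with 2,3-benzofuran (adjusted p = 0.0311), lost after it.

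Members are mostly bright, and bright genes as a whole were higher in treated livers, so each member was set against other tested genes in the same log2 unit of mean signal. Minus the median of those genes, the members' median was 0.0975 with 1,5-naphthalenediamine, with 70 of 92 above it. It was 0.0389 with 2,3-benzofuran (54 of 92), 0.0283 with N-(1-naphthyl)ethylenediamine (57 of 92) and -0.0254 with pentachloronitrobenzene (34 of 92). In the bin from 10 to 11, which holds 25 members, 76% of members were called with 1,5-naphthalenediamine against 42.6% of other genes, 72% against 34.8% with N-(1-naphthyl)ethylenediamine, 28% against 41.7% with 2,3-benzofuran and 16% against 17.1% with pentachloronitrobenzene. Every member called in this bin was higher, while the other genes called higher were, in the same order, 38.1%, 32.6%, 32.2% and 17.1%. At mean signals of 9 and above, the shares were 68.1% of 72 members against 44.3% of 1714 other genes with 1,5-naphthalenediamine, 51.4% against 35.4% with N-(1-naphthyl)ethylenediamine, 23.6% against 41.7% with 2,3-benzofuran and 12.5% against 18.7% with pentachloronitrobenzene. Here too all called members were higher, and the other genes called higher were 39.8%, 33.9%, 32.0% and 18.5% in that order. Against genes of like signal the complexes with 1,5-naphthalenediamine were at 0.118 (I), 0.140 (II), 0.0617 (III), 0.0747 (IV) and 0.101 (V). With N-(1-naphthyl)ethylenediamine they were at 0.0447, 0.0604, 0.0381, 0.0115 and 0.0287, with 2,3-benzofuran at 0.0351, -0.0266, 0.0124, 0.138 and 0.0622, and with pentachloronitrobenzene at -0.0262, 0.0554, -0.0612, -0.0624 and -0.0213. The order of the complexes thus differed between the chemicals, and complex IV was the highest with 2,3-benzofuran and the lowest with N-(1-naphthyl)ethylenediamine and pentachloronitrobenzene. Its median includes the muscle, testis and lung forms described above. Mean signals of its members ran from 4.10 to 12.9, while the lowest were 5.41 in complex I, 10.5 in II, 10.7 in III and 10.7 in V.

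**Figure D5:**
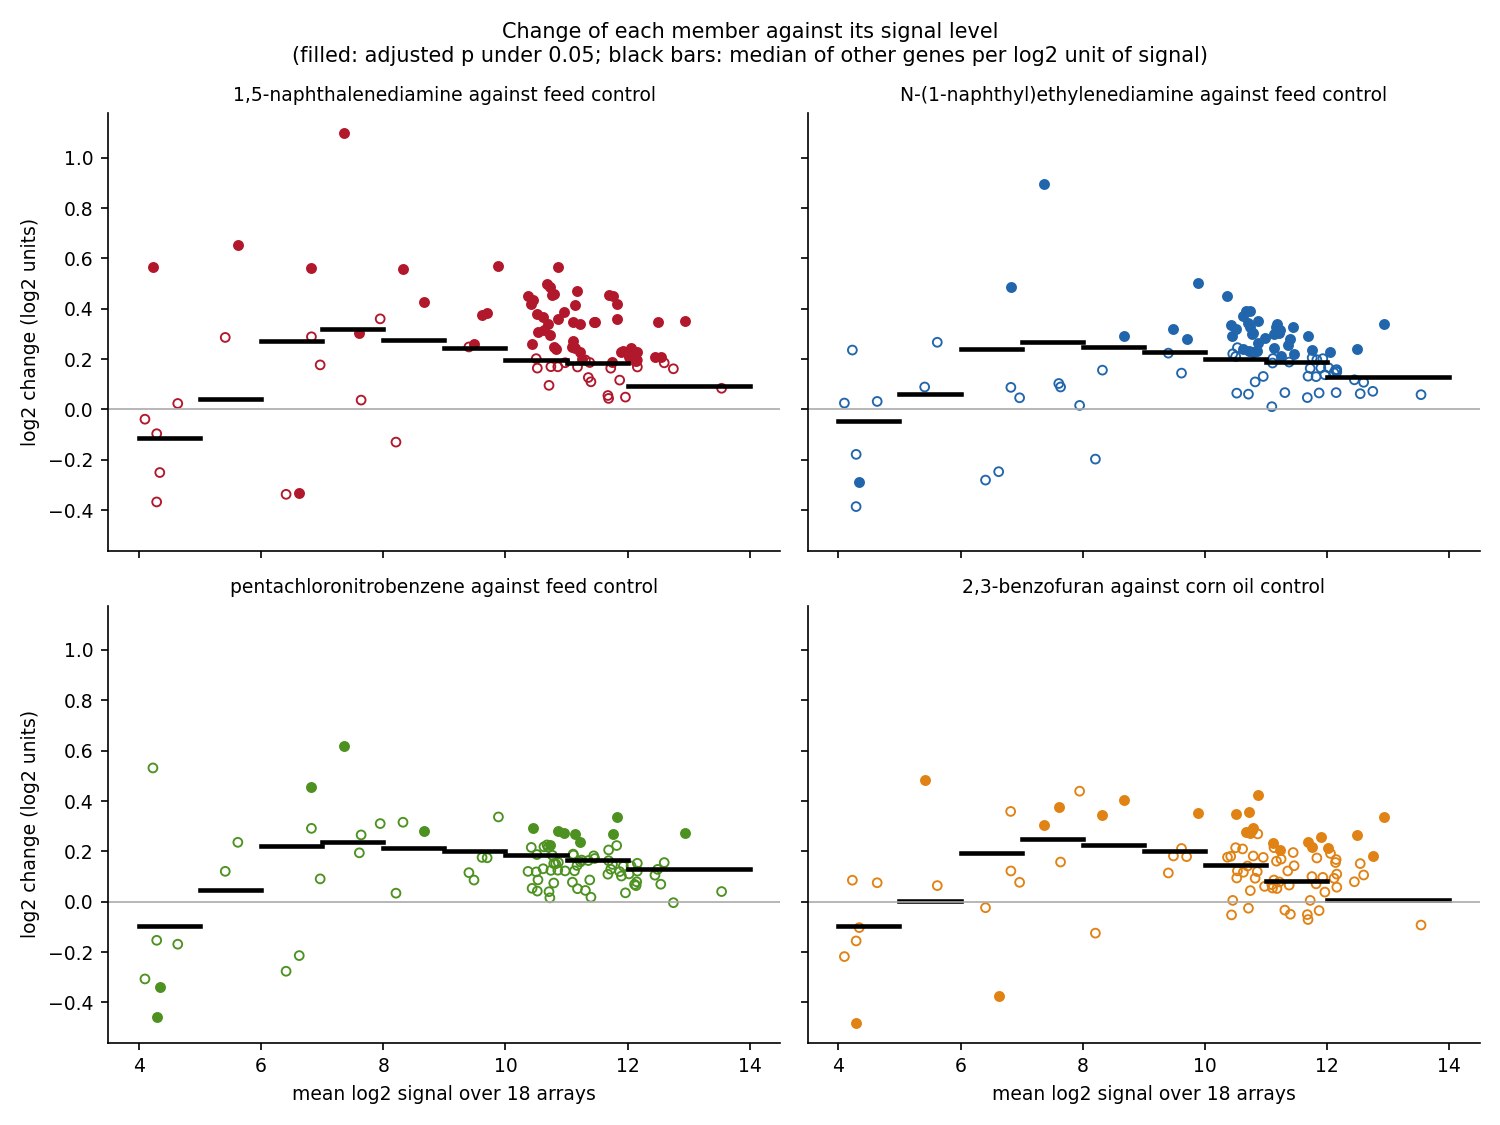
Log2 change of each tested member (vertical axis, log2 units) against its mean log2 signal over 18 arrays (horizontal axis) for the 4 chemicals, with filled points called at an adjusted p under 0.05 and black bars at the median change of other tested genes in each log2 unit. With 1,5-naphthalenediamine 70 of 92 members lie above the bar of their unit and with pentachloronitrobenzene 34 do.

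1,5-naphthalenediamine and N-(1-naphthyl)ethylenediamine are both naphthalenes with amine groups, given at the same dose in feed for the same time, and they form the 1 pair of related compounds compared. 1,5-naphthalenediamine carries its amines directly on the ring system, and N-(1-naphthyl)ethylenediamine carries an ethylenediamine chain. Set directly against each other, no member differed at an adjusted p under 0.05 in limma's test (12 at an unadjusted p under 0.05), while 5.47% of all tested genes did (3.51% higher and 1.96% lower). Arrays did not overlap for 24 higher and 2 lower members, beside 25.1% of all tested genes (13.7% and 11.4%). The members' median difference was 0.0626, higher with 1,5-naphthalenediamine, and 68 of 92 lay above 0. The differences with the lowest p were those of Ndufaf1 (0.40, 95% interval 0.146 to 0.657, adjusted p = 0.0607), Uqcrc2 (0.30, 0.108 to 0.496, adjusted p = 0.0626), Ndufa4 (0.25, 0.0854 to 0.406, adjusted p = 0.0675) and Ndufab1 (0.25, 0.0788 to 0.431, adjusted p = 0.0849), named after their values were seen. After both quantile normalization (7.16% of all tested genes called) and cyclic loess 7 members were called higher with 1,5-naphthalenediamine: Atp5pb, Ndufa4, Ndufab1, Ndufaf1, Ndufs8, Uqcrc2 and Uqcrfs1. RNA integrity numbers were 8.8, 8.9 and 8.8 with 1,5-naphthalenediamine and 7.7, 8.1 and 7.7 with N-(1-naphthyl)ethylenediamine. With this number as a covariate no member was called, beside 0.764% of all tested genes. Since the numbers of the 2 groups did not overlap, the compound and the RNA integrity cannot be fully told apart. For Ndufs3 the interval of the difference was -0.0679 to 0.256, and for Sdha -0.236 to 0.082.

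The labels' tumour classes were compared as the mean effect of the positive chemicals minus that of the negative ones, each against its own control. No member was called (7 at an unadjusted p under 0.05), beside 7.20% of all tested genes (3.80% higher and 3.39% lower), and the median difference was 0.0340. After quantile normalization (9.15% of all tested genes called) Atp5a1, Cox5b, Uqcr10 and Uqcrc2 were called higher with the positive chemicals, and after cyclic loess Cox5b, Uqcr10 and Uqcrc2 were, with Ndufa1 lower. Without the feed control animal 29, 2 members were called, beside 11.1% of all tested genes. Both negative chemicals were given in feed and 1 of the 2 positive ones by gavage, so the class and the route cannot be fully told apart.

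Between the controls, corn oil against feed, no member was called (3 at an unadjusted p under 0.05) in limma's test, beside 0.123% of all tested genes. Arrays did not overlap for 3 higher and 1 lower member, beside 11.1% of all tested genes (7.85% and 3.24%). The members' median difference was 0.0656, and -0.0184 without the feed control animal 29. The spread between control animals was wider than in treated groups: the median SD of the members was 0.153 in the feed control and 0.0943 in the corn oil control, against 0.0456 to 0.0729 in the 4 treated groups.

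Other genes of the same pathways were counted from lists chosen by function. With 1,5-naphthalenediamine 8 of 12 tested citric acid cycle genes rose (median 0.391), led by Suclg1, a subunit of succinyl-CoA ligase (0.67, adjusted p = 5.14e-05), and Mdh2, mitochondrial malate dehydrogenase (0.70, adjusted p = 0.000103). Of 9 coenzyme Q synthesis genes 7 rose (median 0.512), with Coq7 at 0.77 (adjusted p = 8.73e-05) and Coq6 at 0.64 (adjusted p = 0.000378). Assembly factors with other names rose in 14 of 20 cases (median 0.478), with Cox19, a copper carrier for complex IV, at 0.71 (adjusted p = 0.000106) and Sco1 at 0.78 (adjusted p = 0.000125). Of 14 electron and nucleotide carriers 6 rose, with the outer membrane channel Vdac1 at 0.42 and the phosphate carrier Slc25a3 at 0.32 (adjusted p = 0.00143 and 0.00337). Of 15 regulators of mitochondrial biogenesis 9 rose, with Polg2 at 0.89 and Polrmt at 0.77 (adjusted p = 0.000239 and 0.000466), the replication and transcription enzymes of mitochondrial DNA. None of these lists had a gene that fell, and 31.5% of all tested genes were called higher there. After quantile normalization and after cyclic loess, added for the lists after seeing the data, 5 and 4 citric acid cycle genes rose, 4 and 4 of coenzyme Q synthesis, 6 and 6 assembly factors, 1 and 1 carriers, and 4 and 4 regulators, with none lower.

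For N-(1-naphthyl)ethylenediamine the same lists gave 6 of 12, 4 of 9, 6 of 20, 2 of 14 and 8 of 15 higher, with none lower, beside 24.7% of all tested genes called higher. After quantile normalization 3, 1, 0, 0 and 2 were higher, and 1 assembly factor and 2 carriers were lower. Fh1, fumarase, rose by 0.75 (adjusted p = 0.000164), Coq2 by 0.58 (adjusted p = 0.00374), and Ppargc1a, the coactivator that drives mitochondrial gene programmes, by 1.83 (adjusted p = 0.00245). With 2,3-benzofuran they gave 5 of 12, 6 of 9, 10 of 20, 5 of 14 and 5 of 15 higher, and 1 carrier, Slc25a13, fell by 0.38 (adjusted p = 0.0355), beside 24.8% of all tested genes called higher. After quantile normalization 3, 3, 6, 4 and 3 were higher, and 1 citric acid cycle gene, 1 of coenzyme Q synthesis and 3 carriers were lower. Mdh2 and Cs rose there by 0.59 and 0.66 (adjusted p = 0.000328 and 0.00169), and Coq7 and Pdss2 by 0.81 and 0.80 (adjusted p = 4.32e-05 and 0.000343). With pentachloronitrobenzene they gave 2 of 12, 1 of 9, 7 of 20, 0 of 14 and 5 of 15 higher, with Cox11 at 0.53 (adjusted p = 0.0027), beside 14.6% of all tested genes called higher, and after quantile normalization none was higher and 1 of coenzyme Q synthesis was lower.

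Between the naphthalenes the lists gave 0 of 12, 1 of 9, 6 of 20, 2 of 14 and 0 of 15 higher with 1,5-naphthalenediamine than with N-(1-naphthyl)ethylenediamine and none lower, beside 3.51% of all tested genes called higher. The 2 carriers were Cycs, cytochrome c (0.36, adjusted p = 0.0342), and Slc25a5, an ADP/ATP carrier (0.26, adjusted p = 0.0254). The coenzyme Q gene was Coq7 (0.43, adjusted p = 0.0223), and the assembly factors with the lowest p were Acad9 (0.67, adjusted p = 0.0119) and Sco1 (0.49, adjusted p = 0.0174). Between the tumour classes the lists gave 0, 2, 3, 1 and 0 higher with the positive chemicals and none lower, beside 3.80% of all tested genes. Among them were Coq7 (0.57, adjusted p = 0.000749), Pdss2 (0.45, adjusted p = 0.0211) and Slc25a5 (0.25, adjusted p = 0.00855). ND5, the 1 gene of the mitochondrial genome with a probe set here, was called with no chemical (0.12 with 1,5-naphthalenediamine, adjusted p = 0.395).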

How the data were processed

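Liver RNA of 18 mice was hybridised, 10 ug each, to 1-colour Affymetrix mouse arrays, per the labels. The values are the authors' deposited log2 signals of 45101 probe sets, made by a background correction and normalization not given in the sources used here. Depth has no meaning for these signals, and 3 arrays per group limit the precision. Gene names came from the platform annotation of 2016, in which 34958 probe sets name 1 gene and 932 several. Each gene was read from the probe set naming only that gene with the highest mean. 49 of the 94 members have a probe set of shared sequence. Among 47 members with several usable probe sets, all had 1 sign in 42 with 1,5-naphthalenediamine and in 37 with 2,3-benzofuran.

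Genes above the array median in at least 3 of 18 arrays were fitted with limma 3.58.1 in R 4.3.3 (6 group means, eBayes with a variance trend), and p-values were Benjamini-Hochberg adjusted over all 12170 genes. A gene was called at an adjusted p under 0.05. The test was checked on simulated data, drawn for each gene on its own with the same spread in all groups and no difference in array brightness. The check therefore does not cover the brightness and spread differences between the real arrays. Group means under 4.25, the lowest array median, were not shown above background. Labels give separate animals. Alternatives were other scalings, filters, probe set rules, variance models, covariates and samples, and leaving out each array. Named members are those set by role, isoform, size of change or lost filter, and called list genes with the lowest p. Members and lists were chosen with earlier results of these data known.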

Additional observations from a re-analysis of the deposited data

How the results depend on the processing

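Of the comparisons of a called count or a complex median with its alternatives, 138 stayed within 1.5 times or within the spread and 59 moved. Called members after quantile normalization, cyclic loess and centring were 28, 25 and 20 with 1,5-naphthalenediamine (57 as deposited), 13, 14 and 12 with 2,3-benzofuran (24), 6, 5 and 7 with N-(1-naphthyl)ethylenediamine (41) and 2, 2 and 6 with pentachloronitrobenzene (14). Between 1,5-naphthalenediamine and N-(1-naphthyl)ethylenediamine they were 7, 7 and 3 (0), and between positive and negative chemicals 4 after quantile normalization and 4 after cyclic loess (0). Fitting the compared groups alone gave 25 with 1,5-naphthalenediamine, 5 with N-(1-naphthyl)ethylenediamine and 1 with pentachloronitrobenzene, beside 22.6%, 12.2% and 3.29% of all tested genes. The RNA integrity covariate gave 1 with N-(1-naphthyl)ethylenediamine and 6 with pentachloronitrobenzene. The 5 arrays of highest 18S signal were 1,5-naphthalenediamine animal 4, 2,3-benzofuran animals 6 and 10, and N-(1-naphthyl)ethylenediamine animals 12 and 14. Without them the counts were 30 with 1,5-naphthalenediamine and 2 with pentachloronitrobenzene, beside 22.8% and 12.6% of all tested genes. That fit left 1 array each with 2,3-benzofuran and N-(1-naphthyl)ethylenediamine, so no counts are given for these. With pentachloronitrobenzene, no filter gave 8 (12.1% of all genes in that fit), the mean of probe sets 9 (18.0%), no variance trend 8 (18.0%) and leaving out shared probe sets 8 (17.6%). Leaving out shared probe sets also gave 23 with N-(1-naphthyl)ethylenediamine (26.8%), 1 between the naphthalenes (5.28%) and 1 between the tumour classes (6.55%). The mean of probe sets gave 1 between the tumour classes (7.54%). Leaving out 1 array gave 35 to 64 with 1,5-naphthalenediamine, 12 to 21 with 2,3-benzofuran, 15 to 49 with N-(1-naphthyl)ethylenediamine, 1 to 21 with pentachloronitrobenzene, 0 to 0 for corn oil against feed, 0 to 1 between the naphthalenes (1 without N-(1-naphthyl)ethylenediamine animal 12) and 0 to 2 between the tumour classes. Complex medians minus that of all members moved after quantile normalization and cyclic loess: complex I with 2,3-benzofuran to 0.0196 and 0.0141 (0.0445 as deposited), complex IV with 1,5-naphthalenediamine to -0.0159 and 0.00134 (-0.0859), with 2,3-benzofuran to 0.025 and 0.0467 (-0.0467) and with N-(1-naphthyl)ethylenediamine to -0.0695 and -0.0397 (-0.142), and complex V with 1,5-naphthalenediamine to -0.0176 and -0.0198 (-0.0509). The cause was not tested. Updating symbols changed no count, and fitting compared groups alone was not run for the tumour classes, which use all 6 groups. No paired analysis was possible because no animal number occurs in more than 1 group.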
